A study of Mus musculus with 4 samples.

Results

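Gastric-type genes are genes known for their products in the stomach lining, and 10 of them were followed here in the fetal mouse lung. They were the protease genes Cym and Pgc, the gastrokine genes Gkn1, Gkn2 and Gkn3, the trefoil factor genes Tff1, Tff2 and Tff3, the gland mucin gene Muc6 and the intrinsic factor gene Gif (now Cblif). They were found by symbol, and all 10 were among the 22556 genes of the deposited table. The set was chosen by measured values, since the FPKM of Cym and Gkn2 were known to be lower in the mutant libraries, and the difference between genotypes is therefore given for its members as a description with no p-value. RNA of whole lungs at E16.5 gave 2 Control libraries (genotype Shh-Cre; Stk11F/+) and 2 Shh-Stk11 libraries (genotype Shh-Cre; Stk11F/F), labelled C57BL/6, while the methods of the study describe mixed backgrounds. Every lung thus carried the Shh-Cre driver and at least 1 floxed Stk11 allele, and there was no group without Cre. The driver acts in the endoderm that gives rise to the lung epithelium, whereas the RNA also held mesenchyme, vessels and blood. Fewer cells of a type and less RNA per cell cannot be told apart in such libraries.

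The stomach lining is built from surface mucous (pit) cells, mucous neck cells, enzyme-secreting chief cells, acid-secreting parietal cells and endocrine cells. Pit cells secrete gastrokines and trefoil factor 1, neck cells secrete trefoil factor 2 and the gel-forming mucin MUC6, and chief cells secrete the zymogens of acid proteases and, in the mouse, intrinsic factor, which binds cobalamin for uptake in the gut. Chymosin, the product of Cym, is the milk-clotting protease of young mammals. Lung and stomach both arise from the foregut endoderm, and pepsinogen C, the product of Pgc, is also made by alveolar type II cells.

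The promoters of Cym and Gkn2 shared a short run of bases, and they are shown beside the promoters of a protease gene and a gastrokine gene whose groups overlapped. RefSeq promoter windows (GRCm38.p6) were matched for 7 of the 10 genes, and Tff1, Tff2 and Tff3 had no entry. The 150 bases before the transcription start are printed 5′ to 3′ on the strand of the gene, with the letters TATAAA in capitals. The windows are chr3:107221733-107221882 on the minus strand for Cym, chr6:87373215-87373364 on the plus strand for Gkn2, chr6:87388936-87389085 on the minus strand for Gkn3 and chr17:47726692-47726841 on the plus strand for Pgc.
Cym: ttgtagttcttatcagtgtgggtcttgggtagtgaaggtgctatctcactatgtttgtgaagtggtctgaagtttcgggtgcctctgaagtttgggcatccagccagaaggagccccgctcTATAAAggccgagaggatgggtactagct
Gkn2: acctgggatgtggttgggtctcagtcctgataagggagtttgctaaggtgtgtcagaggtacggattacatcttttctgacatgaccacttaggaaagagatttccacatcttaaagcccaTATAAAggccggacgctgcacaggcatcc
Gkn3: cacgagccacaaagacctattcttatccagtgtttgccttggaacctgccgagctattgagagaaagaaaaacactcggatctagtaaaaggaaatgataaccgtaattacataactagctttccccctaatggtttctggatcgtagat
Pgc: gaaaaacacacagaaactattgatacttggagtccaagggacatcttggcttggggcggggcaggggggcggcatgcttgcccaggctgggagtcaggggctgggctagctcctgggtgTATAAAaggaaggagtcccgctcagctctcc

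In Cym and Gkn2 the letters TATAAA began 29 bases before the start, and in Pgc they began 31 bases before it. They were in the 150 bases of 3 of the 7 matched genes. Over 32851 promoter windows of 300 bases (250 before and 50 after the start), 8.32% held them on the strand of the gene and 13.6% on either strand. The run that Cym and Gkn2 shared around this element was the 11 letters TATAAAGGCCG, which contain TATAAA. It was read from these 2 promoters after their values were known, and those 2 were the windows that held it on either strand. The match is a description of letters, with no binding data beside it. Other words were searched on both strands of the 300 bases. AGATAA, in 11.2% of all windows, was found in Gkn1, Gkn2, Gkn3 and Muc6. TGTTTGC, in 5.07%, was found in Gkn2 and Gkn3, and CCAAT, in 37.4%, in Gkn2 and Muc6.

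The values are FPKM, which scale reads to transcript length and to the reads of the library, so that levels can be compared between genes. Estimated from the steps of the low values, the libraries held 30.7 to 37.8 M reads. Stk11, the floxed gene, measured 44 and 45.5 FPKM in Control lungs, against 29.5 and 26 FPKM in the mutant lungs (log2 fold change -0.69, SE 0.125, limma adjusted p 0.0499), and 12 of 14 alternatives brought it over the threshold of 0.05. Library Shh-Stk11 2 stood apart by sex, with Ddx3y at 23.5 FPKM and Xist at 0.239 FPKM, against at most 0.0285 FPKM of Ddx3y in the other libraries. By its defining markers the tissue was lung, with Nkx2-1, the transcription factor of lung epithelium, between 169.5 and 207 FPKM. Of the stomach markers, the proton pump genes Atp4a and Atp4b reached at most 0.0729 and 0 FPKM, and the mesenchymal factor Barx1 at most 0.0521 FPKM. The pit cell markers Muc5ac and Ctse reached at most 0.289 and 2.12 FPKM. Whether the lungs held traces of other tissue was not tested.

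Over the 13770 genes that averaged 0.5 FPKM or more, limma called 1.29% lower and 0.98% higher in Shh-Stk11 lungs at an adjusted p under 0.05. Both Shh-Stk11 libraries were below both Controls for 27.6% of these genes and above both for 19.2%, and 15.2% had an unadjusted p under 0.05 in either direction. Of the gastric-type genes, 5 reached that average (Cym, Gkn2, Gkn3, Pgc and Gif) and 5 did not (Gkn1, Tff1, Tff2, Tff3 and Muc6). Gkn2 reached it only through its Control values. The genes that limma called lower included 2 of the 5, Cym and Gkn2. Their fall chose the set, so this count is no test of them and nothing is read from it.

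**Figure D1:**
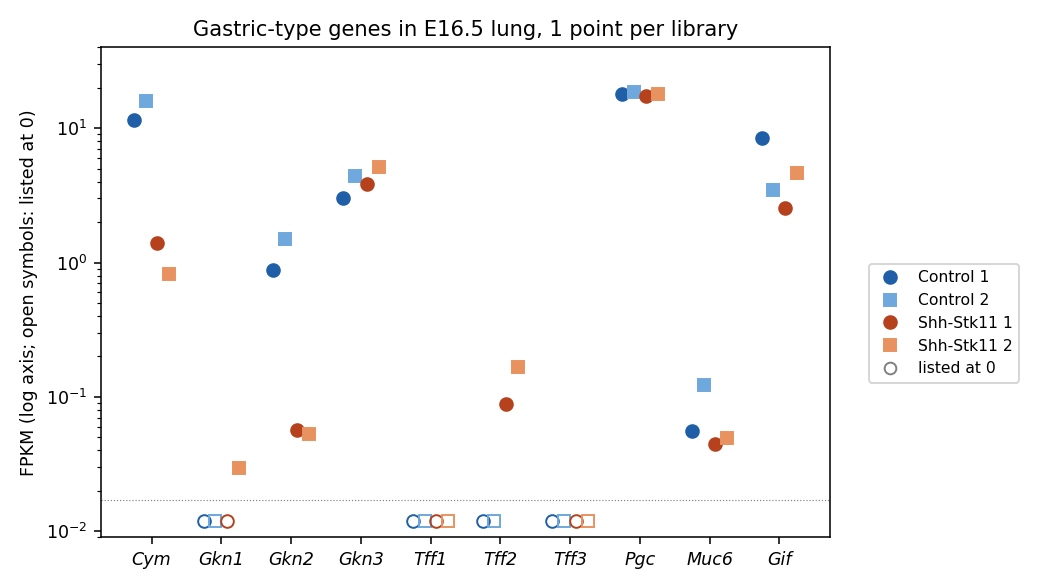
FPKM of the 10 gastric-type genes on a log axis, with 1 point per library, blue for Control and orange for Shh-Stk11, and open symbols at the bottom for values listed at 0. For Cym the Shh-Stk11 points lie at 1.39 and 0.82 FPKM, under Controls at 11.5 and 15.9 FPKM, whereas the 4 points of Pgc lie close together.

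Among the secreted proteases, Cym measured 11.5 FPKM in Control 1 and 15.9 FPKM in Control 2, then 1.39 FPKM in Shh-Stk11 1 and 0.82 FPKM in Shh-Stk11 2. The groups did not overlap, and the lower Control was 8.27 times the higher Shh-Stk11 library. Replicates differed by 1.39 times within Control and by 1.69 times within Shh-Stk11. The mean was 13.7 ± 3.13 FPKM (SD, n = 2) over the Control and 1.1 ± 0.402 FPKM (SD, n = 2) over the Shh-Stk11 libraries, and the log2 fold change was -3.54 (SE 0.275) on the log2(FPKM + 0.1) scale. Cym had an estimated 449 and 520 reads in the Control libraries, against 44 and 28 in the mutant ones, so the transcript was still detected there. The ratio of summed reads per depth was 12.4, with an exact 95% interval of 9.72 to 15.9 that covers counting error only. With 1 library left out, the log2 fold change of Cym was lowest without Shh-Stk11 1 (-3.89) and highest without Shh-Stk11 2 (-3.19), the library that stood apart by sex.

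Pgc, the other zymogen gene of the set, had the highest level of the 10 genes in both genotypes. It measured 18 and 18.5 FPKM in Control lungs, against 17.3 and 18.1 FPKM in the mutant lungs. The groups overlapped, with means of 18.3 ± 0.373 FPKM (SD, n = 2) over the Control and 17.7 ± 0.605 FPKM (SD, n = 2) over the Shh-Stk11 libraries. The log2 fold change of Pgc was -0.05 (SE 0.117), and it was 0.10 with the trend of each library with transcript length and GC content removed.

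Among the gastrokines, secreted proteins with a BRICHOS domain, Gkn2 measured 0.875 FPKM in Control 1 and 1.5 FPKM in Control 2, then 0.0569 and 0.0528 FPKM in the Shh-Stk11 libraries. This was about 19 and 28 reads in Control and 1 read in each Shh-Stk11 library. The groups did not overlap, and the mutant level was that of a single read, under the limit of 3 reads (0.154 and 0.166 FPKM). The ratio of summed reads per depth was 21.6, with an exact 95% interval of 5.65 to 183 for counting error only. The fitted log2 fold change of -3.01 (SE 0.429) depended on the value added before taking logs, and was -1.04 with 1 FPKM and -4.16 with 0.01 FPKM added.

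Gkn3 measured 3.05 and 4.38 FPKM in Control lungs, against 3.87 and 5.13 FPKM in the mutant lungs. The groups overlapped, with library Shh-Stk11 1 between the Controls. The means were 3.71 ± 0.94 FPKM (SD, n = 2) over the Control and 4.5 ± 0.893 FPKM (SD, n = 2) over the Shh-Stk11 libraries, with a log2 fold change of 0.28 (SE 0.231). Gkn1 was listed at 0 in 3 libraries and at 0.0297 FPKM, or 1 read, in Shh-Stk11 2. A count of 0 allows up to 3 reads, or 0.0756 to 0.0932 FPKM of Gkn1, and the single read lies within that limit.

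The trefoil factors, small secreted peptides of mucosal surfaces, were at or near 0. Tff1 and Tff3 were listed at 0 in all 4 libraries, where a limit of 3 reads allows up to 0.195 FPKM of Tff1 and 0.334 FPKM of Tff3 in the shallowest library. Tff2 was listed at 0 in both Controls and at 0.0891 and 0.165 FPKM in the Shh-Stk11 libraries. This was 1 and 2 reads, under the limit of 3 reads, and no fold is given.

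Muc6, the mucin gene of the stomach glands, measured 0.056 and 0.123 FPKM in Control lungs, against 0.0447 and 0.0491 FPKM in the mutant lungs. Its long transcript gave about 18 and 33 reads in Control, then 12 and 14 in Shh-Stk11. Both mutant values were below both Controls, but the lower Control was 1.14 times the higher Shh-Stk11 value, while the Controls differed from each other by 2.2 times. The ratio of summed reads per depth was 1.8, with an exact 95% interval of 1.1 to 3.01 for counting error only.

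Gif measured 8.4 and 3.49 FPKM in Control lungs, against 2.57 and 4.67 FPKM in the mutant lungs. Library Control 1 was high, and the other 3 libraries overlapped. The means were 5.94 ± 3.47 FPKM (SD, n = 2) over the Control and 3.62 ± 1.49 FPKM (SD, n = 2) over the Shh-Stk11 libraries. The log2 fold change of Gif, -0.63 (SE 0.441), was -0.01 without Control 1 and -1.25 without Control 2.

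By mean level in Control lungs the order was Pgc, Cym, Gif, Gkn3, Gkn2 and Muc6, and the 4 other genes were listed at 0. Gif and Gkn3 overlapped between libraries, and the other neighbours in this order did not. In Shh-Stk11 lungs the order was Pgc, Gkn3, Gif and Cym, with Gkn3 and Gif again overlapping. Tff2, Gkn2, Muc6 and Gkn1 were lower there. Their order is not given, since Tff2, Gkn2 and Gkn1 had at most 2 estimated reads in either Shh-Stk11 library. Among all tested genes, the Control level of Pgc was at percentile 64.7, that of Cym at 56.2, of Gif at 33.2, of Gkn3 at 23.7 and of Gkn2 at 8.28.

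**Figure D2:**
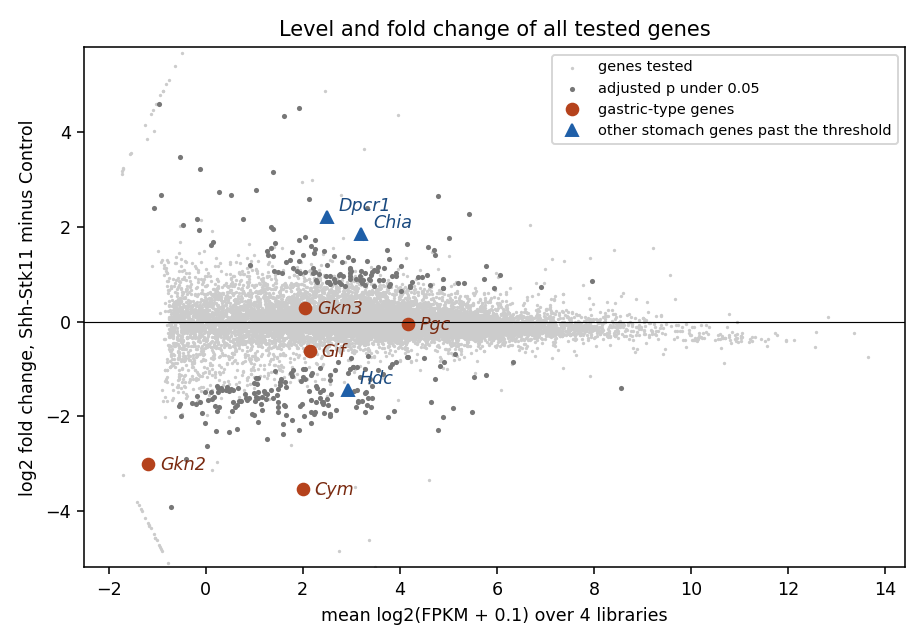
Each point is 1 of the 13770 tested genes, with its level on the x axis and its log2 fold change, Shh-Stk11 minus Control, on the y axis; 14 genes lie beyond the y axis. Cym (-3.54) and Gkn2 (-3.01) sit at the lower edge of the cloud, and Gkn3 (0.28), Pgc (-0.05) and Gif (-0.63) inside it.

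The tested genes most like Cym and Gkn2 in profile were found by the root mean square distance of log2(FPKM + 0.1) over the 4 libraries, each profile centred on its own mean. For Cym the nearest was Gja3, a connexin gene, at a distance of 0.331. Gkn2 followed at 0.362, then Npy2r, a neuropeptide Y receptor gene, at 0.607 and Lrrn1, which encodes a leucine-rich repeat protein, at 0.649. For Gkn2 the nearest was again Gja3 at 0.278, followed by Gm8909 at 0.328, Cym at 0.362 and Rtdr1 at 0.406. Gm8909 has near-identical copies in the major histocompatibility complex, and its value is uncertain. Gja3 measured 1.85 and 2.13 FPKM in Control lungs, against 0.242 and 0.125 FPKM in the mutant lungs, without overlap. These distances describe 4 libraries, and the difference between the genotypes is part of each. Cym and Gkn2 were chosen for their fall, so genes near them in profile fall as well by construction, and nothing is read from these distances. The mutant values of Gkn2 stand for 1 read each, so its distances also depend on the value added before taking logs.

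Genes beside each member on the chromosome were compared next. The gene order was taken from RefSeq, and the 2 nearest genes of the table on either side gave 24 neighbours at 6 loci, of which 13 were tested and 1 was called by limma, beside 2.27% of all tested genes in either direction. On chromosome 3, Kcna2, a potassium channel gene near Cym, measured 2.49 and 2.12 FPKM in Control lungs, against 3.6 and 2.55 FPKM in the mutant lungs (limma adjusted p 0.484). Its Shh-Stk11 values were above the Controls, where those of Cym were below. Hbxip, on the other side of Cym, had a limma adjusted p of 0.653, and Kcna10 and Prok1 reached at most 0.0195 and 0.153 FPKM. On chromosome 6, where Gkn2 lies between Gkn1 and Gkn3, the tested genes flanking the gastrokines were Antxr1 (log2 fold change 0.16, limma adjusted p 0.634) and Arhgap25 (-0.35, limma adjusted p 0.398).

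The called neighbour was Oosp1, an oocyte-secreted protein gene near Gif on chromosome 19. It measured 0.118 and 0.0951 FPKM in Control lungs, against 2.04 and 2.39 FPKM in the mutant lungs (log2 fold change 3.49, SE 0.313, limma adjusted p 0.00525). Oosp1 reached the average for a test only through its Shh-Stk11 values. The fold depended on the value added before taking logs, and was 1.54 with 1 FPKM and 4.26 with 0.01 FPKM added. Oosp1 stayed past the threshold with each library left out in turn, and lost it with the replicate number as a block (limma adjusted p 0.0743). Gif overlapped between the genotypes. On chromosome 7, Muc6 lies beside the mucin genes Muc2 and Muc5ac, which were too low for a test. Muc2, the intestinal mucin, measured 0.025 and 0.0653 FPKM in Control lungs, against 0.0771 and 0.0668 FPKM in the mutant lungs. Muc5ac, the mucin of stomach pit cells and airway goblet cells, measured 0.0537 and 0.0991 FPKM in Control lungs, against 0.289 and 0.188 FPKM in the mutant lungs. Both were higher in both Shh-Stk11 libraries, where Muc6 was lower, beside 19.2% higher and 27.6% lower of all tested genes. For Muc2 the lower Shh-Stk11 value (0.0668 FPKM) was barely above the higher Control (0.0653 FPKM), and the Controls differed by more from each other.

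**Figure D3:**
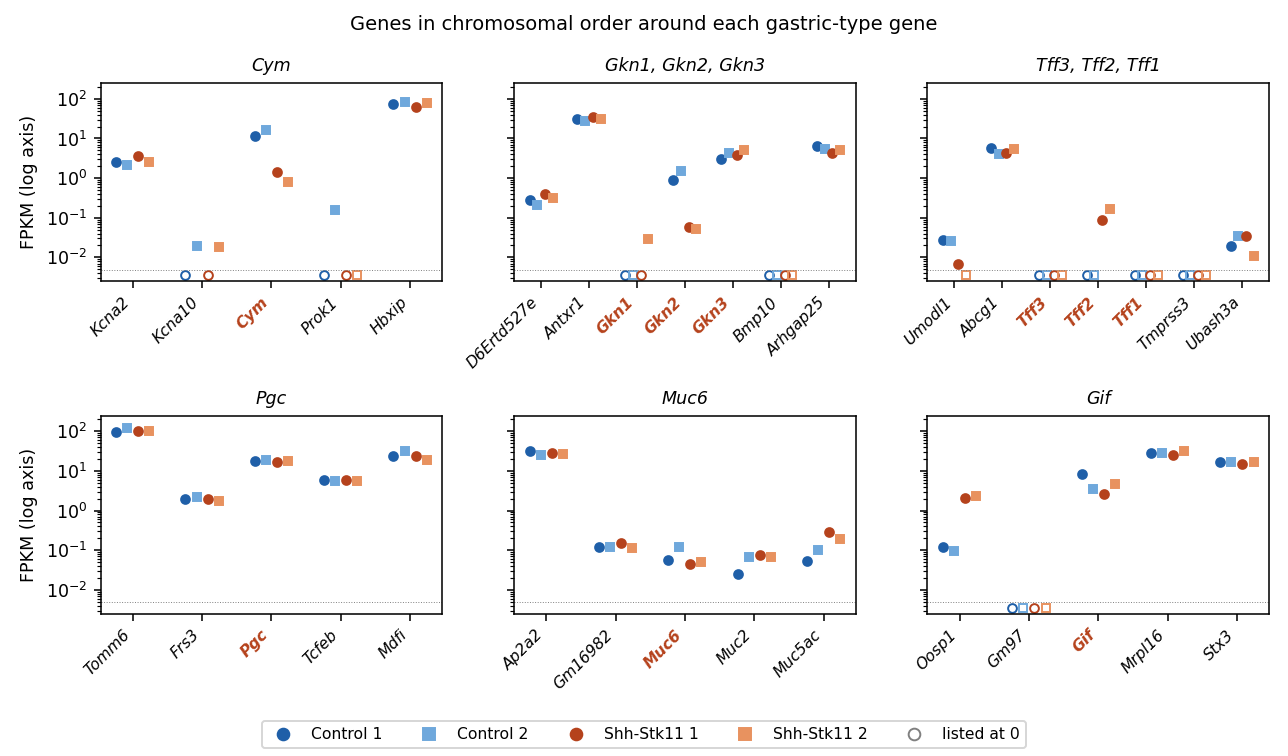
FPKM on a log axis of the genes around each gastric-type gene in chromosomal order, with 1 panel per locus, 1 point per library and open symbols for values listed at 0. Cym and Gkn2 are lower in both Shh-Stk11 libraries, and Oosp1, near Gif, is higher in both, at 2.04 and 2.39 FPKM.

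Relatives by protein family were then compared. Cym and Pgc encode aspartic proteases, and 5 of their relatives outside the set were tested. Limma called 0 of these 5 (2.27% of all tested genes), and 0 had an unadjusted p under 0.05 (15.2% of all tested genes). With 5 genes a count of 0 is near these shares, and nothing is read from it. The median log2 fold change of the 5 was -0.05, as over all tested genes (-0.05). Napsa, which processes surfactant proteins in alveolar type II cells, measured 201 and 153 FPKM in Control lungs, against 174 and 229.7 FPKM in the mutant lungs (limma adjusted p 0.711). Ctsd, the lysosomal cathepsin D gene, averaged 158 ± 4.62 FPKM (SD, n = 2) over the Control and 144 ± 26.7 FPKM (SD, n = 2) over the Shh-Stk11 libraries, with a limma adjusted p of 0.744. Bace1 and Bace2, the beta-secretase genes, had limma adjusted p of 0.65 and 0.929. The renin gene Ren1 reached at most 0.16 FPKM, the skin protease gene Asprv1 0.465 FPKM and the pepsinogen gene Pga5 0.0262 FPKM. Ctse, the cathepsin E gene of pit cells, measured 0.398 and 2.02 FPKM in Control lungs, against 2.12 and 0.346 FPKM in the mutant lungs (limma adjusted p 0.987), and its replicates differed more than its genotypes.

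The gastrokines share the BRICHOS domain with the surfactant protein gene Sftpc and the ITM2 genes, among others. Outside the set 5 such genes were tested. Limma called 0 of them (2.27% of all tested genes), and 0 had an unadjusted p under 0.05 (15.2% of all tested genes). With 5 genes a count of 0 is near these shares, and nothing is read from it. The median log2 fold change of the 5 was -0.27, against -0.05 over all tested genes. Sftpc measured 17426 and 15784 FPKM in Control lungs, against 8005 and 12048 FPKM in the mutant lungs (limma adjusted p 0.447), lower in both mutant libraries. Itm2b, the most abundant ITM2 gene, averaged 578 ± 2.83 FPKM (SD, n = 2) over the Control and 487 ± 66.6 FPKM (SD, n = 2) over the Shh-Stk11 libraries, with a limma adjusted p of 0.555. For Itm2a and Itm2c the limma adjusted p was 0.434 and 0.603. Itm2a and Itm2b were lower in both mutant libraries as well, as 27.6% of all tested genes were, and Itm2c overlapped. Lect1, the chondromodulin gene, overlapped between the genotypes (limma adjusted p 0.514), and Tnmd, the tenomodulin gene, reached at most 0.0849 FPKM.

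**Figure D4:**
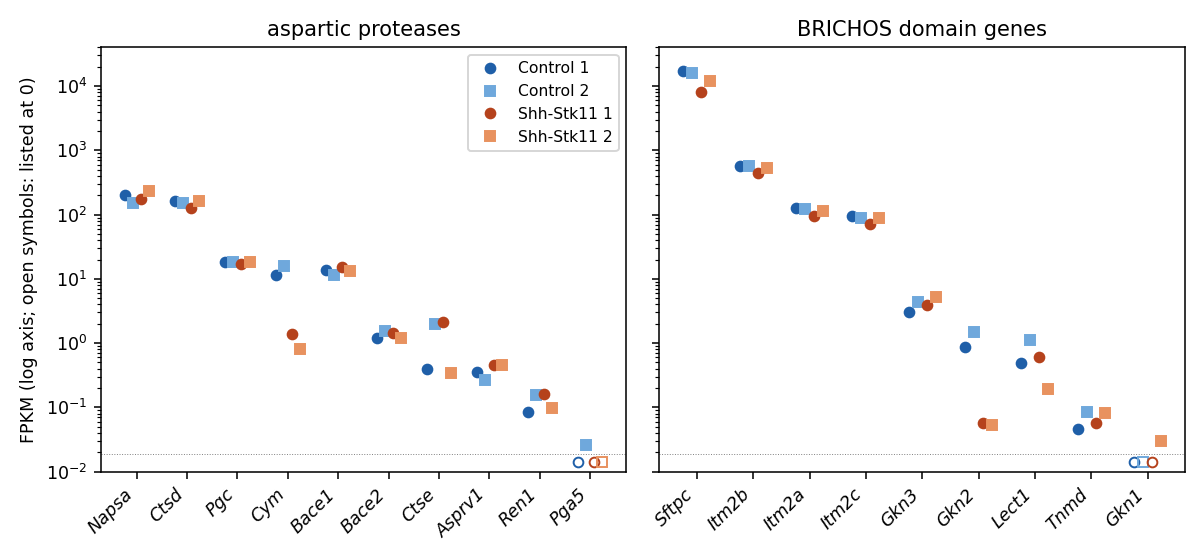
FPKM on a log axis of the aspartic protease genes (left) and the BRICHOS domain genes (right), ordered by mean Control level, with 1 point per library and open symbols for values listed at 0. The lower Control of Cym is 8.27 times its higher Shh-Stk11 library, and the Shh-Stk11 points of Gkn2 stand for 1 read each.

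In the trefoil domain family of 7 genes, 1 could be tested, the lysosomal alpha-glucosidase gene Gaa (limma adjusted p 0.574), which averaged 20.2 ± 0.13 FPKM (SD, n = 2) over the Control and 17.8 ± 2.2 FPKM (SD, n = 2) over the Shh-Stk11 libraries. Among the gel-forming mucins, none of which reached the average for a test, Muc5b of the airways measured 0.0178 and 0.0364 FPKM in Control lungs, against 0.737 and 0.285 FPKM in the mutant lungs, higher in both mutant libraries. Muc19 reached at most 0.00338 FPKM. Of 9 genes of cobalamin handling, Gif included, 8 were tested and limma called 0, with 1 at an unadjusted p under 0.05, near the 15.2% of all tested genes. This was Lrp2, the megalin gene, which measured 0.591 and 0.249 FPKM in Control lungs, against 0.772 and 1.11 FPKM in the mutant lungs (limma adjusted p 0.308). Tcn2, the plasma cobalamin carrier gene, averaged 43.8 ± 3.92 FPKM (SD, n = 2) over the Control and 40.4 ± 6.21 FPKM (SD, n = 2) over the Shh-Stk11 libraries, with a limma adjusted p of 0.754.

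Other genes known from stomach epithelium were counted beside the set. Of 59 such genes, 37 were under 0.5 FPKM in every library and 22 were tested. Limma called 1 lower and 2 higher, beside 1.29% and 0.98% of all tested genes. An unadjusted p under 0.05 in limma was found for 14 of the 22, beside 15.2% of all tested genes. Both Shh-Stk11 libraries were below both Controls for 6 and above them for 11 of the tested genes, beside 27.6% and 19.2% of all tested genes. The median log2 fold change was 0.26, against -0.05 over all tested genes, and it was 0.61 at an average of 5 FPKM or more and -0.00427 without a filter.

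Chia, a chitinase gene of chief cells and lung epithelium, rose, and it measured 4.72 and 4.78 FPKM in Control lungs, against 18.8 and 16.2 FPKM in the mutant lungs (log2 fold change 1.86, SE 0.136, limma adjusted p 0.00329). Dpcr1, a mucin-like gene, rose as well and measured 2.71 and 2.34 FPKM in Control lungs, against 10.8 and 13.5 FPKM in the mutant lungs (log2 fold change 2.22, SE 0.171, limma adjusted p 0.00374). Without Control 2 the limma adjusted p was 0.0546 for Chia and 0.0631 for Dpcr1. Hdc, the histamine-forming enzyme gene of gastric endocrine cells and mast cells, fell, and it measured 12.7 and 12.3 FPKM in Control lungs, against 4.74 and 4.33 FPKM in the mutant lungs (log2 fold change -1.44, SE 0.132, limma adjusted p 0.00566). Its limma adjusted p was 0.0934 without Control 1 and 0.0916 without Control 2. The groups did not overlap for any of these 3 genes.

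By cell type, 6 of 16 pit cell genes were tested, and Dpcr1 was the one called (2.27% of all tested genes). An unadjusted p under 0.05 in limma was found for 3 of the 6 (15.2% of all tested genes). Without overlap 3 of the 6 were lower and 2 higher (27.6% and 19.2% of all tested genes). Cldn18, a tight junction gene of stomach and alveolar epithelium, averaged 314 ± 53.5 FPKM (SD, n = 2) over the Control and 476 ± 55.4 FPKM (SD, n = 2) over the Shh-Stk11 libraries, with a limma adjusted p of 0.184. Agr2, a disulfide isomerase gene of mucous cells, measured 2.18 and 4.47 FPKM in Control lungs, against 1.64 and 0.925 FPKM in the mutant lungs (limma adjusted p 0.184). Of 11 neck and chief cell genes 4 were tested and Chia was the one called, with 3 higher and 0 lower without overlap (19.2% and 27.6% of all tested genes). An unadjusted p under 0.05 in limma was found for 3 of the 4 (15.2% of all tested genes). Of 18 parietal cell genes 10 were tested and limma called 0, with 7 at an unadjusted p under 0.05 (15.2% of all tested genes). Without overlap 6 of the 10 were higher and 2 lower (19.2% and 27.6% of all tested genes), and their median log2 fold change was 0.36. Kcnj15, a potassium channel gene named after its values were seen, measured 21.3 and 10.8 FPKM in Control lungs, against 41.2 and 43.8 FPKM in the mutant lungs (limma adjusted p 0.0644). Ezr, which links membrane and actin, averaged 82.3 ± 0.65 FPKM (SD, n = 2) over the Control and 104 ± 0.0926 FPKM (SD, n = 2) over the Shh-Stk11 libraries, with a limma adjusted p of 0.244. In the other direction Car2, a carbonic anhydrase gene, measured 178 and 187 FPKM in Control lungs, against 96.5 and 118 FPKM in the mutant lungs (limma adjusted p 0.0613). Of 14 gastric endocrine genes 2 were tested, Hdc and the ghrelin gene Ghrl, which overlapped between the genotypes (limma adjusted p 0.571).

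**Figure D5:**
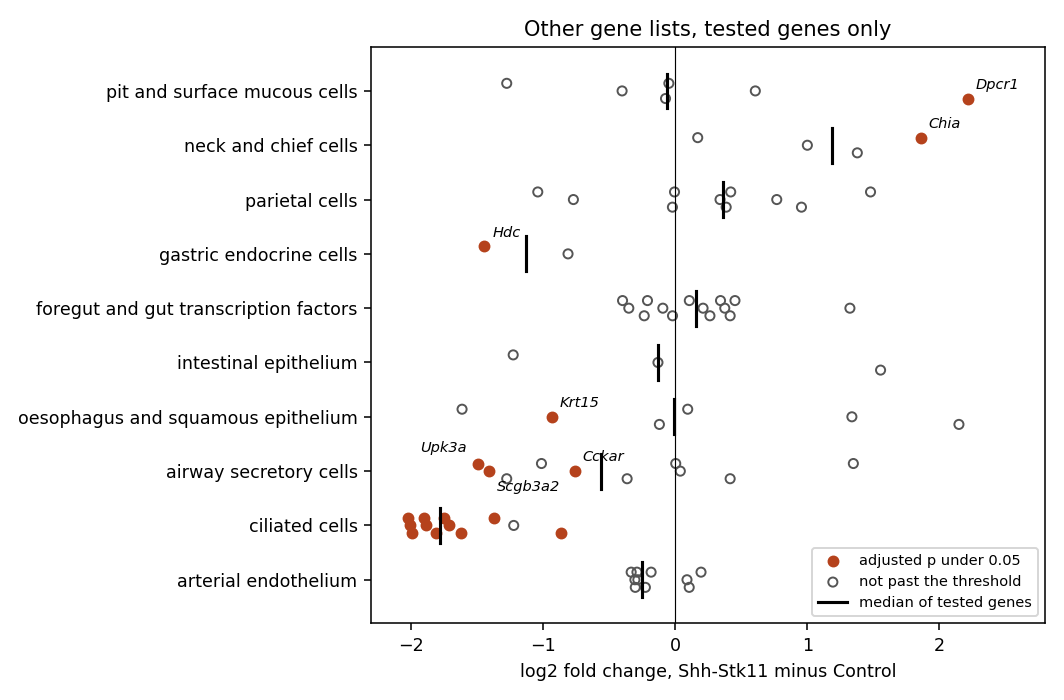
Log2 fold change, Shh-Stk11 minus Control, of the tested genes of each list, with filled points past an adjusted p of 0.05 in limma and a bar at the median. Chia (1.86) and Dpcr1 (2.22) stand to the right and Hdc (-1.44) to the left, and 11 of 12 ciliated cell genes are filled and to the left.

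Of 23 transcription factors of the foregut and gut, 14 were tested and limma called 0, with 3 at an unadjusted p under 0.05 (15.2% of all tested genes). Without overlap 3 were lower and 6 higher (27.6% and 19.2% of all tested genes). Foxa2, a factor of all endoderm, averaged 22.2 ± 0.206 FPKM (SD, n = 2) over the Control and 28.8 ± 1.77 FPKM (SD, n = 2) over the Shh-Stk11 libraries, with a limma adjusted p of 0.19. Its relative Foxa1 averaged 21.9 ± 1.24 FPKM (SD, n = 2) over the Control and 18.7 ± 2.91 FPKM (SD, n = 2) over the Shh-Stk11 libraries, with a limma adjusted p of 0.521.

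Lists of lung cell types are given beside the fall of Cym and Gkn2. The summed level of 12 ciliated cell genes was 167 and 177 FPKM in Control lungs and 50.1 and 49.1 FPKM in Shh-Stk11 lungs, and limma called 11 of them lower, the median log2 fold change being -1.78. This count was 6 without a filter, 2 without Control 1, 2 without Control 2 and 1 with the replicate number as a block. The sum of 14 airway secretory genes was 951 and 973 FPKM in Control lungs and 746 and 799.9 FPKM in Shh-Stk11 lungs, and 3 of 10 tested genes, Upk3a, Scgb3a2 and Cckar, were called lower and 0 higher. Scgb3a2 and Cckar lost their calls in 10 and 11 of 14 alternatives, and Upk3a in 4. Genes of this list differed in direction. Scgb3a2, a secretoglobin gene and the most abundant of them in Control, measured 552 and 679 FPKM in Control lungs, against 286 and 185 FPKM in the mutant lungs (limma adjusted p 0.0422). Scgb1a1, the defining secretoglobin gene of club cells, measured 221 and 102 FPKM in Control lungs, against 312 and 471 FPKM in the mutant lungs, higher in both mutant libraries (log2 fold change 1.35, limma adjusted p 0.144). Of 19 genes of distal and general lung epithelium, 5 were lower and 7 higher without overlap, beside 27.6% and 19.2% of all tested genes. Pdpn of alveolar type I cells was called lower (limma adjusted p 0.0464), a call absent in 11 of 14 alternatives. The surfactant protein gene Sftpd, named after its values were seen, measured 76 and 33.6 FPKM in Control lungs, against 143 and 301 FPKM in the mutant lungs, higher in both mutant libraries (log2 fold change 2.04, limma adjusted p 0.0853). The part of these cell types in the fall of Cym and Gkn2 was not tested. Of 6 tested genes of oesophagus and squamous epithelium 1 was called lower, Krt15 (limma adjusted p 0.0227), a call lost in 5 of 14 alternatives. Without overlap 2 of the 6 were lower and 2 higher (27.6% and 19.2% of all tested genes). The higher ones were the keratin gene Krt13 (log2 fold change 1.34, limma adjusted p 0.0623) and the cornified envelope gene Sprr1a (2.15, limma adjusted p 0.0717), both named after their values were seen.

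The remaining lists held no call by limma. Tested were 3 intestinal genes, 4 of pancreas and liver, 1 of stomach mesenchyme, 10 endothelial, 10 arterial and 5 neuroendocrine genes, with 2, 1, 1, 5, 0 and 2 of them at an unadjusted p under 0.05, beside 15.2% of all tested genes. Of the endothelial genes 9 were lower and 0 higher without overlap, beside 27.6% and 19.2% of all tested genes, and their summed level was 867 and 772 FPKM in Control lungs and 613 and 649.7 FPKM in Shh-Stk11 lungs (median log2 fold change -0.34). The part of the endothelium in the fall of Cym and Gkn2 was not tested. Gkn3 is also known from arterial endothelium, and the summed level of the arterial genes was 228 and 193 FPKM in Control lungs and 183 and 199 FPKM in Shh-Stk11 lungs.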

How the data were processed

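Total RNA of E16.5 lungs was sequenced by the authors as single-end reads, and the processing notes of the labels name TopHat2 2.0.13, Cufflinks 2.2.1 and the builds GRCm38 and mm9 without their roles. The authors deposited 1 table with the FPKM of each gene in each library, and any scaling between libraries is not given in the sources used here. FPKM values are not counts, so log2(FPKM + 0.1) was fitted with limma 3.58.1 (lmFit, eBayes with trend; R 4.3.3) on all genes averaging 0.5 FPKM or more. Tests were two-sided with Benjamini-Hochberg adjustment over all 13770 genes and a threshold of 0.05. With 2 libraries against 2, the smallest p of an exact permutation test is 0.333. The study speaks of independent biological replicates, while the labels give neither litter nor animal. The fit was tested on simulated data.

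Reads were estimated as FPKM times the longest GENCODE M21 transcript less 200 bases times a depth. The depth was that which brought low values (under 0.3 FPKM, genes with a single transcript of at least 2000 bases) nearest to whole reads. Between 76.2% and 82.4% of 176 to 192 values per library then lay within 0.1 of a whole read. Intervals are exact Clopper-Pearson intervals at 95%. Symbols were matched to GENCODE M21, 20242 directly and 1948 by synonym.

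The members and lists were chosen with earlier results of these data known. Named were all members and their family relatives, neighbors, the 4 nearest profiles to Cym and Gkn2, and from each list up to 4 genes with the largest change past the threshold and the 3 highest in Control. Ddx3y, Xist, Atp4a, Atp4b and Barx1 were named as checks of the samples. Not every gene that the rule allows is named. Alternatives were other pseudocounts, filters, scalings and variance models, removal of the length and GC trend, a replicate block and leaving out each library.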

Additional observations from a re-analysis of the deposited data

How the results depend on the processing

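With 2 libraries per genotype, calls rested on the variance that limma shares across genes. The 178 lower and 135 higher genes became 90 lower with a mean of at least 5 FPKM, 41 and 20 without a filter, 108 and 80 after removing the trend with length and GC, and 23 to 127 and 15 to 64 with a library left out. The count of gastric-type genes among the calls, 2 with Cym and Gkn2, whose fall chose the set, became 1 with a mean of at least 5 FPKM, which Gkn2 does not reach, 1 without a filter, and 0 to 2 with a library left out, being 0 without Control 2. Among the other stomach genes, the median log2 fold change of 0.26 was 0.61 with a mean of at least 5 FPKM and -0.00427 without a filter. Their 1 lower call became 2 with the length and GC trend removed and 0 to 1 with a library left out, being 0 without Control 1 or without Control 2, and their 2 higher calls 0 to 3, being 0 without Control 2. By construction fewer genes entered at 5 FPKM, more genes without a filter and fewer libraries when 1 was left out, and the cause of the shifts was otherwise not tested. As a description, since their fall chose the set, the log2 fold change lay between -3.89 and -2.8 for Cym and between -4.16 and -1.04 for Gkn2, and a filter, the block or the variance model cannot move it. Depth limits Gkn2, Gkn1 and the trefoil factors, with 0 to 2 reads in the Shh-Stk11 libraries.

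Same-numbered libraries did not deviate together (correlation -0.114 across genes), so the numbers were not taken as pairs. With replicate number as a block, 7 genes were lower and 6 higher, and 0 gastric-type genes and 0 other stomach genes were called in either direction. With the numbers crossed, an alternative chosen after seeing the data, the block gave 315 lower and 360 higher genes and 3 lower and 6 higher other stomach genes.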
